A study of Bos taurus and other sequences with 9 samples.

Results

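SBI-dFBS is a commercial fetal bovine serum that the manufacturer depleted of extracellular vesicles (EVs) before sale. In this series 2 production lots of it were sequenced, SBI-dFBS-1 (lot 1) and SBI-dFBS-2 (lot 2), and these libraries, chosen by their labels, are 2 of 9. Each lot was added to DMEM/F12 with Glutamax and penicillin-streptomycin, the medium that all serum samples of the series share. RNA was isolated with an EV kit from medium that had held no cells, and the paper could not exclude RNA from outside vesicles. The other libraries were media with untreated FBS (2 sera, from Sigma and Gibco), with the same sera depleted by ultracentrifugation (UC-dFBS) or by ultrafiltration (UF-dFBS), and the serum-free medium StemPRO. The comparison shows how far the small non-coding RNA of a depleted serum differs from lot to lot. Each lot was 1 library, so that nothing measures the spread between libraries of the same lot, no test was possible, and all intervals given are exact 95% intervals that cover counting error only.

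Serum holds several kinds of small RNA, inside vesicles and bound to proteins. MicroRNAs (miRNAs) are short regulators of mRNA, and many are made mainly in one tissue, so that a serum miRNA can point to the tissue that releases it. Transfer RNAs (tRNAs) carry amino acids to the ribosome, and their cleaved ends are abundant in serum. Small nuclear RNAs (snRNAs) are the RNA parts of the spliceosome, small nucleolar RNAs (snoRNAs) guide the modification of other RNAs, and Y RNAs bind the Ro protein and are often found outside cells as fragments. Reads of bovine serum were named by their match to human miRNAs and to the human genome, so that a named locus is the human sequence a read matched.

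Lot 1 held 4403408 counts and lot 2 held 5970214 counts. Spike-in normalized values, which are counts divided by a factor from external RNAs added to each sample, summed to 486876 in lot 1 and to 1580558 in lot 2, a 3.25-fold higher total in lot 2 against 1.36-fold in counts. The difference between these ratios is the spike-in factor, which was 9.04 counts per unit in lot 1 and 3.78 in lot 2. A higher RNA content and a different recovery of the spike-ins cannot be told apart. Neither can more vesicles, more RNA per vesicle and more RNA outside vesicles. The 5 most abundant RNAs held 45.5% of counts in lot 1 and 42.9% in lot 2. Of 425 miRNAs, 296 were detected in lot 1, 252 in lot 2 and 225 in both. A miRNA detected in lot 1 alone had at most 10 counts there, and one detected in lot 2 alone at most 3.

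The classes of small RNA did not differ between the lots by one common factor. Transfer RNA dominated both lots and was higher in lot 2, while Y RNA was the only class with a lower spike-in normalized total in lot 2. Transfer RNA summed to 4301924 counts in lot 1 and 5899634 in lot 2, and its spike-in normalized total was 3.28-fold higher in lot 2 (3.28 to 3.29). It made up 97.7% of all counts in lot 1 and 98.8% in lot 2, so that its share was close to equal. The other classes therefore divided a small remainder of each library. The paper cautions that its spike-ins were miRNA-sized, so that normalization is likely less accurate for RNAs other than miRNAs, which were mostly longer.

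The miRNA total was 86679 counts in lot 1 and 61315 in lot 2. The spike-in normalized miRNA totals were 9584 and 16233, 1.69-fold higher in lot 2 (1.68 to 1.71), whereas the miRNA share of all counts was 1.97% in lot 1 and 1.03% in lot 2. The direction of the miRNA difference thus depended on the scale. The snRNA total behaved likewise, with 9088 counts in lot 1 and 8150 in lot 2, a 2.15-fold higher spike-in normalized total in lot 2 (2.08 to 2.21), and shares of 0.206% and 0.137%. Y RNA was lower in lot 2 on all 3 scales. It had 5375 counts in lot 1 and 950 in lot 2, was 2.36-fold lower after spike-in normalization (2.21 to 2.53), and its share of counts was 7.67-fold lower. The snoRNA total was 340 counts in lot 1 and 162 in lot 2, and its spike-in normalized ratio of 1.14 (0.940 to 1.38) did not exceed counting error. Sequences matching piRNAs, small RNAs of the germ line, were at 2 counts in lot 1 and 3 in lot 2.

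**Figure D1:**
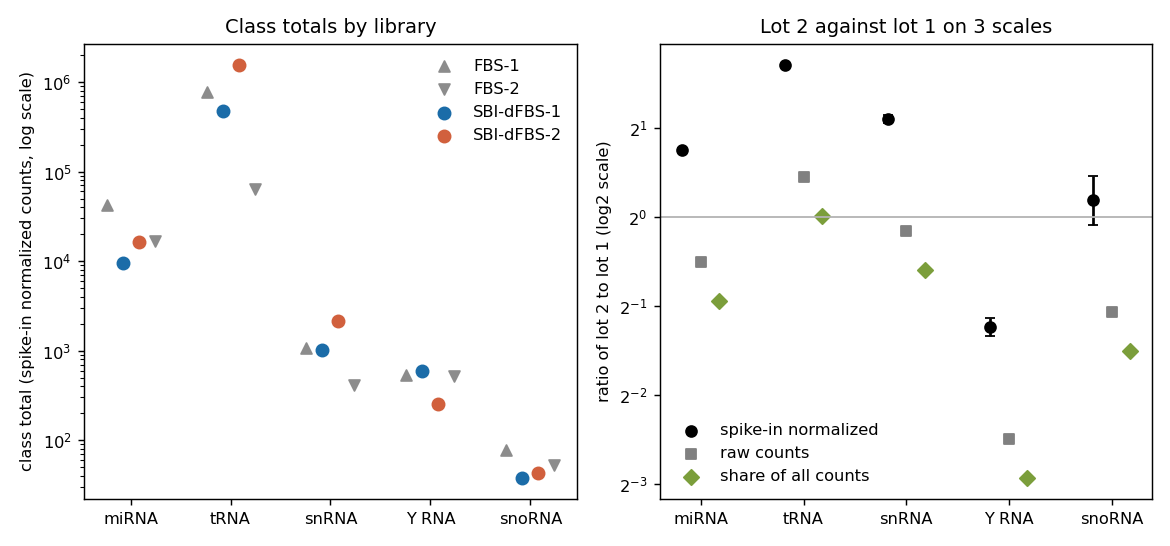
Left, spike-in normalized totals of 5 small RNA classes (log axis) in both lots of SBI-dFBS and both untreated FBS sera, each point 1 library with no replicate. Right, ratio of lot 2 to lot 1 (log2 axis) from spike-in normalized values (with exact 95% counting intervals), raw counts and shares of all counts: only Y RNA lies below 1 on all 3 scales, and only tRNA above 1 on all 3.

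The miRNA, tRNA and snRNA totals were each led by a single RNA or family in lot 2, and they were computed again without it. Without miR-122-5p, the miRNA total was 1.41-fold higher in lot 2 (1.38 to 1.44). Without tRNA-His, the tRNA total was 2.31-fold higher in lot 2 in spike-in units but its ratio in counts was 0.965, so that the direction in counts turned. Without U4, the direction of the snRNA total turned, from 971 spike-in units in lot 1 to 567 in lot 2, which is 1.71-fold lower. The higher snRNA total of lot 2 therefore rested on U4.

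Among the tRNAs, the same 4 isotypes led both lots, with histidine first. Their order below the first was also the same, but the weight of tRNA-His was larger in lot 2. The tRNA-His loci made up 39.9% of tRNA counts in lot 1 and 57.7% in lot 2. Glycine followed with 31.9% in lot 1 and 22.1% in lot 2, glutamate with 15.3% and 8.53%, and valine with 10.2% and 6.37%. Histidine thus gained share in lot 2, by a ratio of 1.45, while the other three had ratios of 0.691, 0.557 and 0.626. All 4 were higher in lot 2 in spike-in units, by 4.75-fold for histidine, 2.27-fold for glycine, 1.83-fold for glutamate and 2.06-fold for valine. Untreated FBS spanned a wider range, with a histidine share of 63.7% for the Sigma serum (FBS-1) and 6.61% for the Gibco serum (FBS-2).

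Of the 22 isotypes with at least 20 counts over both lots, 4 had an at least 2-fold higher share of tRNA counts in lot 2 and 5 an at least 2-fold lower share. Alanine was the most abundant of those with a higher share, at 64663 counts in lot 1 and 242194 in lot 2 and a 2.73-fold higher share (2.71 to 2.75). Serine had 864 and 3240 counts, a 2.73-fold higher share (2.54 to 2.95). Isoleucine had 435 and 1268 counts, a 2.13-fold higher share (1.90 to 2.38). Loci annotated as tRNA pseudogenes completed this group with a 2.51-fold higher share.

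The isotypes with a lower share in lot 2 were rare in both lots. Selenocysteine tRNA, which reads a stop codon to insert selenocysteine, had 128 counts in lot 1 and 18 in lot 2, a 9.75-fold lower share (5.93 to 17.0). Tyrosine had 32 and 5 counts, and glutamine had 127 and 26 counts, a 6.70-fold lower share (4.37 to 10.6). Phenylalanine had 76 and 19 counts, and asparagine 53 and 17. In spike-in units selenocysteine, tyrosine and glutamine tRNAs were at least 2-fold lower in lot 2, whereas the ratios of phenylalanine and asparagine were 0.599 and 0.768. The remaining isotypes lay within 2-fold. Methionine, which starts translation, was level in share at 0.195% and 0.198%, and arginine and threonine had ratios of 1.08 and 1.10. Lysine (0.702), cysteine (0.729), tryptophan (0.605) and proline (0.860) had lower shares in lot 2, and aspartate (1.36) a higher one.

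**Figure D2:**
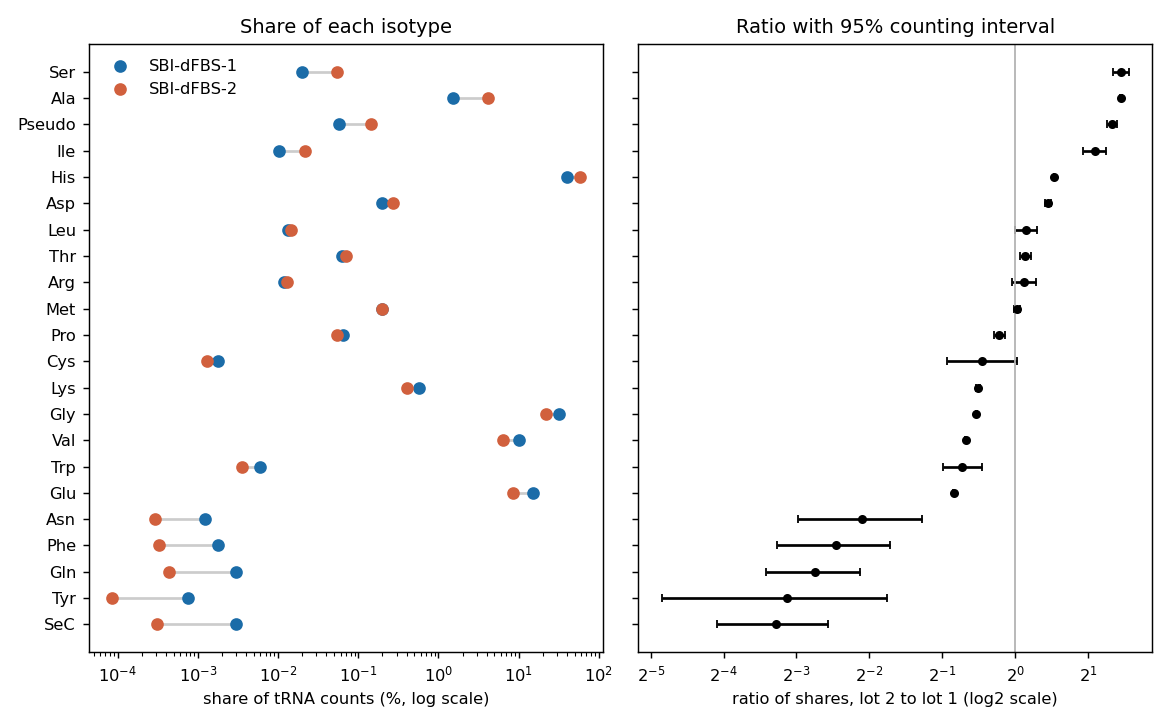
Left, share of tRNA counts (percent, log axis) of each tRNA isotype with at least 20 counts over both lots, each point 1 library. Right, ratio of the shares, lot 2 to lot 1 (log2 axis), with exact 95% counting intervals and a line at 1: serine, alanine, pseudogenes and isoleucine lie above 2-fold, and selenocysteine, tyrosine, glutamine, phenylalanine and asparagine more than 2-fold below.

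Isotypes were not uniform, and anticodons of the same amino acid differed in opposite directions. Glycine was mostly GlyCCC, which had 1360669 counts in lot 1 and 1261737 in lot 2, a ratio of shares of 0.676. GlyGCC had 12396 and 39664 counts, a ratio of 2.33 (2.29 to 2.38), so that the lower glycine share was that of GlyCCC. Among valine tRNAs, ValCAC and ValAAC had ratios of 0.537 and 0.548 but ValTAC had 1.80. Among threonine tRNAs, ThrAGT had a 3.51-fold lower share (233 and 91 counts) and ThrTGT a ratio of 1.66. Leucine was also split, with LeuCAA at a 2.74-fold lower share (174 and 87 counts) and LeuCAG at a 3.63-fold higher one (110 and 548 counts, 2.96 to 4.50). LeuCAG was also the highest ratio of all anticodons with at least 100 counts, followed by SerAGA at 2.97 (558 and 2274 counts). The 3 alanine anticodons, in contrast, were alike, with ratios of 2.69 for AlaTGC, 2.73 for AlaAGC and 2.78 for AlaCGC. Both glutamate anticodons were also alike, at 0.538 for GluCTC and 0.559 for GluTTC.

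Single loci were compared by the log2 ratio of lot 2 to lot 1 after subtracting the median log2 ratio of the 338 loci with at least 20 counts over both lots. This centred ratio does not depend on the spike-in factor or on depth. The median locus was 3.21-fold higher in lot 2 in spike-in units and 1.34-fold higher in counts. By this measure 95 loci (28.1%) were at least 2-fold above the median locus and 81 (24%) at least 2-fold below it. In all, 52.1% of loci were 2-fold apart, and 19 (5.62%) were at least 4-fold above and 52 (15.4%) at least 4-fold below the median. All 95 loci above the median were also higher in lot 2 in spike-in units and in counts. The 81 loci below it were all lower in counts, but 19 of them were higher in spike-in units. Of these 81 loci, 23 had a lot at the floor of 3 counts, against 0 of the 95 above. As 1 count was 0.111 spike-in units in lot 1 and 0.265 in lot 2, the filter admitted loci high in lot 1 at lower levels. The balance between the sides, also past 4-fold, is therefore not a result about the lots. How reads that match several near-identical loci were placed is not given in the sources used here, so that loci of a family are not independent measurements.

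The numbers of loci 2-fold above and 2-fold below the median locus varied by family. Among 278 tRNA loci, 85 were at least 2-fold above it and 33 at least 2-fold below. Centred on the median tRNA locus instead, an alternative chosen after seeing the data, 63 were 2-fold above and 64 below, so that the balance of these calls followed from the centring. The same held for the other loci. Centred on all loci, 10 snRNA loci were above and 29 below, and 17 Y RNA and 2 snoRNA loci were all below. Centred on the loci other than tRNA, also chosen after seeing the data, 18 were above and 21 below. Among isotypes with at least 10 loci tested, serine (15 of 16 loci), isoleucine (13 of 15) and glycine (18 of 29) had the largest shares of loci at least 2-fold above the median of all loci, and threonine (11 of 18) had the largest share at least 2-fold below. Leucine, alanine, valine, lysine and arginine had loci on both sides. None of the 21 proline or 10 histidine loci was 2-fold apart, with centred log2 ratios of 0.48 to 0.69 for histidine. The most abundant locus of both lots, tRNA34-GlyCCC (GRCh37, chr16:686736-686806, minus strand), had 703297 counts in lot 1 and 651405 in lot 2. The highest tRNA locus with at least 100 counts was tRNA133-ValCAC (chr6:27696327-27696399, minus strand), with 643 and 4978 counts, 18.5-fold higher in spike-in units (17.1 to 20.2). This locus went against its anticodon, whose share was lower in lot 2.

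The snRNAs showed the sharpest contrast between the lots. U11, a part of the minor spliceosome that recognises the 5′ splice site of rare introns, made up most of the snRNA in lot 1, and U4, which pairs with U6 in the major spliceosome, made up most of it in lot 2. U4 had 307 counts in lot 1 and 6008 in lot 2, and its spike-in normalized sum was 33.9 in lot 1 and 1591 in lot 2, 46.9-fold higher (41.8 to 52.7). Its share of snRNA counts was 3.38% in lot 1 and 73.7% in lot 2. U11 had 6013 counts in lot 1 and 1111 in lot 2, was 2.26-fold lower in spike-in units (2.12 to 2.41), and its share was 66.2% and 13.6%. Nearly all U11 counts were at RNU11-201 (chr1:28975112-28975245, plus strand), with 6012 counts in lot 1 and 1111 in lot 2.

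U1, which recognises the 5′ splice site of most introns, was the snRNA family furthest below its lot 1 level in lot 2. It had 1037 counts in lot 1 and 52 in lot 2, an 8.33-fold lower spike-in normalized sum, and its share of snRNA was 11.4% and 0.638%. U2, which binds the branch point, had 1106 and 487 counts, and its spike-in normalized ratio of 1.05 (0.946 to 1.17) did not exceed counting error. U12, the counterpart of U2 in the minor spliceosome, had 546 and 461 counts, a nearly equal share (6.01% and 5.66%) and a 2.02-fold higher spike-in sum in lot 2. U11 and U12 act in the same complex, yet their ratios lay on opposite sides of 1 in spike-in units. The rest were sparse, with 34 counts in lot 1 and 12 in lot 2 for U7, which acts in histone mRNA processing, 33 and 14 for U6, 11 and 4 for U5, 1 and 1 for U6atac and 0 in both for U4atac.

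**Figure D3:**
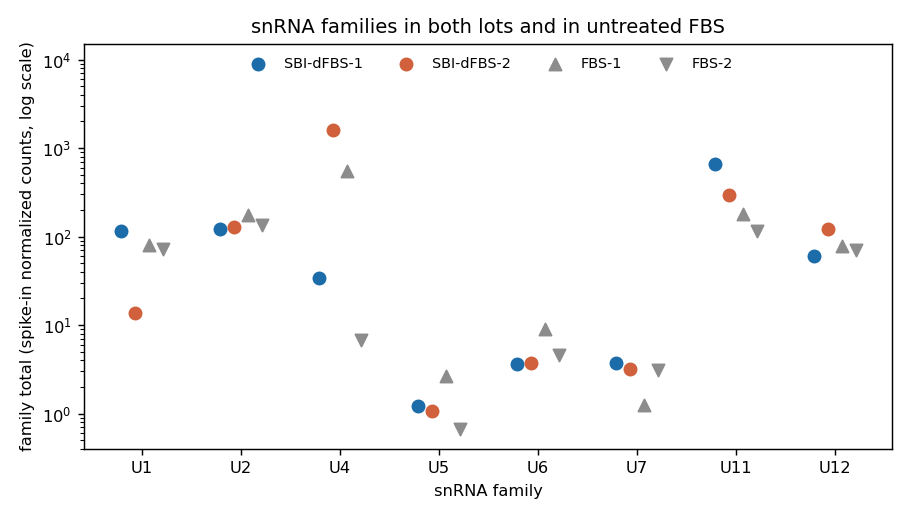
Spike-in normalized sums of 8 snRNA families (log axis) in both lots of SBI-dFBS and both untreated FBS sera, each point 1 library with no replicate. U4 is 33.9 in lot 1 and 1591 in lot 2, and U1 is 115 in lot 1 and 13.8 in lot 2, whereas U2 is nearly level.

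The same contrast was seen at each U4 and U1 locus tested. All 10 U4 loci tested were at least 2-fold above the median locus, beside 28.1% of all loci, with 23 to 41 counts in lot 1 and 572 to 628 in lot 2. All 19 U1 loci tested were at least 2-fold below it, beside 24% of all loci, with 39 to 64 counts in lot 1 and 0 to 6 in lot 2. The U1 loci passed the filter on counts through lot 1, where they were high, so that the U1 difference is the sum over all 77 loci given above. Whether the loci of a family hold the same reads was not tested, so that the counts of loci are no separate support for the family sums. RNU4-1-201 (chr12:120730900-120731040, minus strand) is one of the U4 loci and had 23 counts in lot 1 and 586 in lot 2. Of these U1 loci, 6 with 39 to 59 counts in lot 1 had none in lot 2, which put them at least 5.43-fold (the lowest bound) to at least 8.21-fold lower in spike-in units against the floor of 3 counts in lot 2. Of the 10 U2 loci tested, 9 were at least 2-fold below the median locus, beside 24% of all loci. The median locus was itself 3.21-fold higher in lot 2 in spike-in units, whereas the U2 sum was nearly level. The U2 calls thus followed from the centring.

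A spread of U4 of this kind was also present between the untreated sera, with spike-in sums of 557 in FBS-1 and 6.71 in FBS-2, and of 330 and 30.5 in the UC-dFBS made from them. U1, in contrast, was close to level between the sera, at 79.7 in FBS-1 and 73.2 in FBS-2. The U4 level of lot 2 was above, and the U1 level of lot 2 below, those of both untreated sera. U1 was also lower in the depleted sera than in untreated FBS, at 24.5 in UC-dFBS-1 and 29.0 in UC-dFBS-2, beside 13.8 in lot 2. U11 was higher in both lots than in FBS-1 (178) and FBS-2 (114).

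The lower Y RNA total of lot 2 was a sum over all 238 loci of the class. All 17 Y RNA loci tested were at least 2-fold below the median locus, beside 24% of all loci. Those with few counts in lot 2 passed the filter mainly through lot 1, and loci of the class may share reads. The count of loci is therefore no separate support for the lower total. In spike-in units 16 of the 17 were lower in lot 2 and 1 was higher, at 19 and 10 counts. The most abundant, Y_RNA.384-201 (chr7:6252269-6252371, minus strand), had 1661 counts in lot 1 and 226 in lot 2, 3.07-fold lower in spike-in units (2.67 to 3.54). Y_RNA.523-201 (chr2:9755396-9755502, plus strand) had 160 counts in lot 1 and 1 in lot 2, a ratio of 0.0150 (0.000377 to 0.0846). Its centred log2 ratio, with the floor of 3 counts in lot 2, was the lowest of all loci tested at -6.16. Among Y RNA loci with at least 100 counts over both lots, the least lowered was Y_RNA.273-201 (chr1:23696747-23696839, plus strand), which had 507 and 151 counts, 1.40-fold lower in spike-in units. The Y RNA totals of both untreated sera, 532 and 522, lay close to lot 1 (594) and above lot 2 (252). Those of the depleted sera UC-dFBS-1 (308) and UC-dFBS-2 (411) lay between the lots.

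The snoRNAs were too sparse for most comparisons, and 2 of 163 loci passed the filter. SNORD94-201 (chr2:86362993-86363129, plus strand), a box C/D snoRNA, had 266 counts in lot 1 and 104 in lot 2, and its spike-in ratio of 0.936 (0.739 to 1.18) did not exceed counting error. SCARNA15-201, a Cajal body RNA, had 19 and 11 counts. Both lay below the median locus by more than 2-fold, but that locus was itself 3.21-fold higher in lot 2 in spike-in units. These calls thus followed from the centring. SNORD57.1-201 (chr20:2637585-2637656, plus strand), a box C/D snoRNA, was detected in lot 2 alone, with 18 counts, which is at least 14.4-fold higher than in lot 1 with the floor of 3 counts taken there. It was also at 16.3 spike-in units in FBS-1 and not detected in FBS-2.

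Among the miRNAs, miR-122-5p, the main miRNA of hepatocytes, led both lots by a wide margin. It had 58945 counts in lot 1 and 45006 in lot 2, or 68.0% and 73.4% of all miRNA counts, and its spike-in normalized value was 1.83-fold higher in lot 2 (1.81 to 1.85). The next most abundant miRNA was miR-16-5p in lot 1, a widely expressed miRNA abundant in blood cells, and miR-142-3p in lot 2. The spike-in normalized value of miR-16-5p was 260 in lot 1 and 248 in lot 2, a ratio of 0.953 (0.882 to 1.03) within counting error. It was level on this scale only, with 2355 counts in lot 1 and 937 in lot 2. Its log2 ratio relative to the median miRNA was -0.267 (-0.378 to -0.157). Also abundant in both lots were let-7b-5p at 219 in lot 1 and 318 in lot 2, miR-148a-3p at 144 and 158, and miR-126-3p of endothelial cells at 111 and 155. miR-26a-5p, also among the most abundant miRNAs of lot 1, was at 106 and 71.2.

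The 121 miRNAs with at least 20 counts over both lots held 99.3% of miRNA counts in lot 1 and 99.5% in lot 2. The median miRNA was 1.15-fold higher in lot 2 in spike-in units and 2.09-fold lower in counts, and single miRNAs are given relative to it. By the centred ratio 16 miRNAs (13.2%) were at least 2-fold above the median miRNA and 22 (18.2%) at least 2-fold below, so that 31.4% were 2-fold apart. All 16 were higher in lot 2 in spike-in units, and all 22 were lower in spike-in units and in counts. Past 4-fold there were 2 miRNAs (1.65%) above and 8 (6.61%) below. As 1 count was 0.111 spike-in units in lot 1 and 0.265 in lot 2, the filter admitted miRNAs high in lot 1 at lower levels. The balance between the sides is therefore not a result about the lots. Across these 121 miRNAs the log2 counts of the lots had a Pearson correlation of 0.85 and a Spearman correlation of 0.81, as a description across miRNAs that share their libraries.

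**Figure D4:**
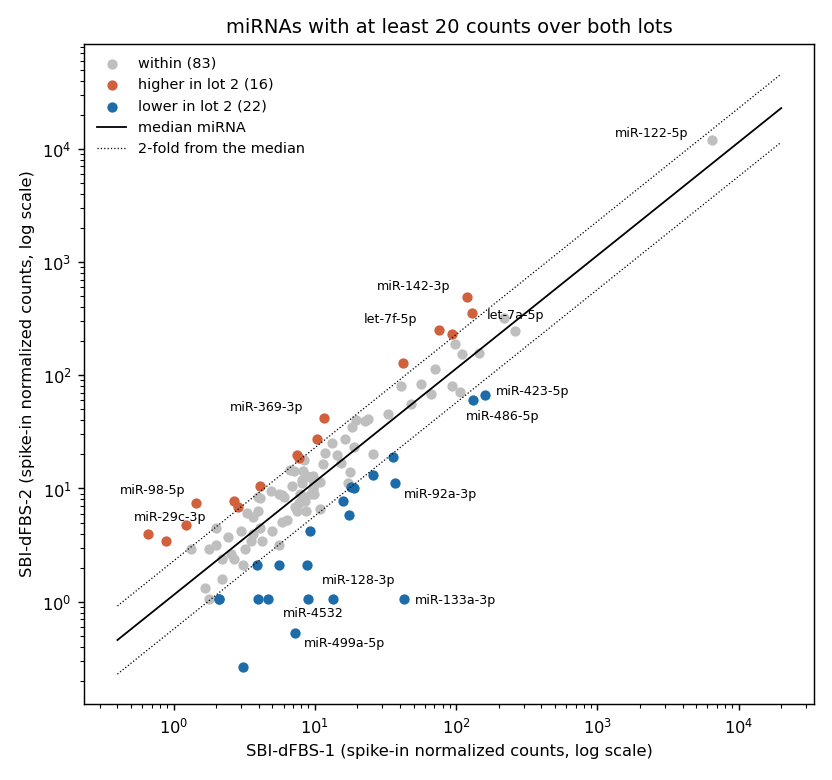
Spike-in normalized values of the 121 miRNAs with at least 20 counts over both lots, lot 1 on the horizontal and lot 2 on the vertical log axis. Each point is 1 miRNA, the solid line is the median ratio and the dotted lines are 2-fold from it. The miRNAs below the lines include miR-133a-3p at 43.0 and 1.06, and those above include miR-142-3p at 120 and 494.

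Muscle and heart miRNAs were lower in lot 2. The 7 members in the table summed to 579 counts in lot 1 and 19 in lot 2, or 64.0 and 5.03 spike-in units, 12.7-fold lower in lot 2. miR-133a-3p, which is expressed in skeletal and heart muscle, had 389 counts in lot 1 and 4 in lot 2, 40.6-fold lower in spike-in units (15.7 to 150). This was the largest difference of any miRNA tested. miR-499a-5p, encoded within a myosin gene, had 65 and 2 counts, a ratio of 0.0737 (0.00874 to 0.277). miR-1, which is transcribed together with miR-133a, had 50 and 8 counts, 2.61-fold lower (1.23 to 6.38). miR-206 of skeletal muscle had 42 and 4 counts, and miR-208b-3p, from another myosin gene, had 28 and 1. Another member, miR-133b, had 5 counts in lot 1 and 0 in lot 2, and miR-208a-3p was not detected in either lot. The 5 members with at least 20 counts were all at least 2-fold below the median miRNA, beside 18.2% of all miRNAs, but they passed this filter through lot 1, where they were high, so that the count adds nothing to the values above. The summed level of lot 1 was above those of FBS-1 (8.46) and FBS-2 (6.30). That of lot 2 (5.03) rested on 19 counts and was below both, but near FBS-2, and no counting interval was taken for this comparison.

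The let-7 family, which represses growth-promoting mRNAs, lay on the other side. Of 9 members tested, 5 were at least 2-fold above the median miRNA, beside 13.2% of all miRNAs, none was 2-fold below, and the median centred log2 ratio was 1.06. let-7a-5p had 1177 counts in lot 1 and 1329 in lot 2, 2.70-fold higher in spike-in units (2.50 to 2.93). let-7f-5p had 688 and 944 counts, 3.29-fold higher (2.98 to 3.63). The family was not uniform, since let-7b-5p, the most abundant member in lot 1, had 1984 and 1201 counts and a centred log2 ratio of 0.34, and let-7i-5p had 891 and 720 counts and 0.75. The members miR-98-5p (13 and 28 counts), let-7c-5p (94 and 103) and let-7g-5p (70 and 70) were also above 2-fold, and let-7d-5p and let-7e-5p were within it. As members of the family differ by few bases, a read could be assigned to a neighbouring member. miR-98-5p reached the filter on counts only with its counts in lot 2, where it was high. The count of members is therefore no separate support for the values of the single members.

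White cell and platelet miRNAs were also high in lot 2, through miR-142. The list summed to 169 spike-in units in lot 1 and 635 in lot 2, a 3.76-fold higher value (3.53 to 4.01). miR-142-3p, the main arm of a miRNA specific to blood-forming cells, had 1085 counts in lot 1 and 1865 in lot 2, 4.12-fold higher in spike-in units (3.82 to 4.44). Its other arm, miR-142-5p, had 377 and 488 counts, 3.10-fold higher (2.70 to 3.56). The remaining members tested were within 2-fold of the median miRNA, with 36 and 24 counts for miR-223-3p of myeloid cells and 27 and 16 for miR-155-5p of lymphocytes. The list was higher still in untreated FBS, at 3731 in FBS-1 and 1222 in FBS-2.

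Red cell miRNAs were split. miR-486-5p had 1194 counts in lot 1 and 227 in lot 2, a spike-in ratio of 0.455 (0.393 to 0.525), whereas miR-144-5p had 68 and 74 counts and was above the median miRNA by 2-fold. miR-451a, the most abundant miRNA of erythrocytes, had 296 and 172 counts and a centred log2 ratio of 0.28, and miR-144-3p, from the same cluster, had 33 and 21 counts and 0.41. Of the 4 members, 3 were thus above the median miRNA and miR-486-5p was below it.

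Liver and vascular miRNAs were within 2-fold of the median miRNA, as were most miRNAs, of which 31.4% were 2-fold apart. The 3 liver miRNAs tested had a median centred log2 ratio of 0.67, with miR-192-5p at 177 and 152 counts and miR-194-5p at 71 and 34 beside miR-122-5p. The 4 vascular miRNAs had a median of 0.47, with 1002 and 585 counts for miR-126-3p and 367 and 306 for miR-143-3p of smooth muscle. Of the 4 listed members of the miR-30 family tested, all 5p arms, none was 2-fold apart, beside 31.4% of all miRNAs, and the median was 0.67. The 3p arm of miR-30e, outside the list, was more than 2-fold below the median miRNA, with 19 and 4 counts. The single epithelial miRNA tested, miR-203a, had 37 and 31 counts.

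**Figure D5:**
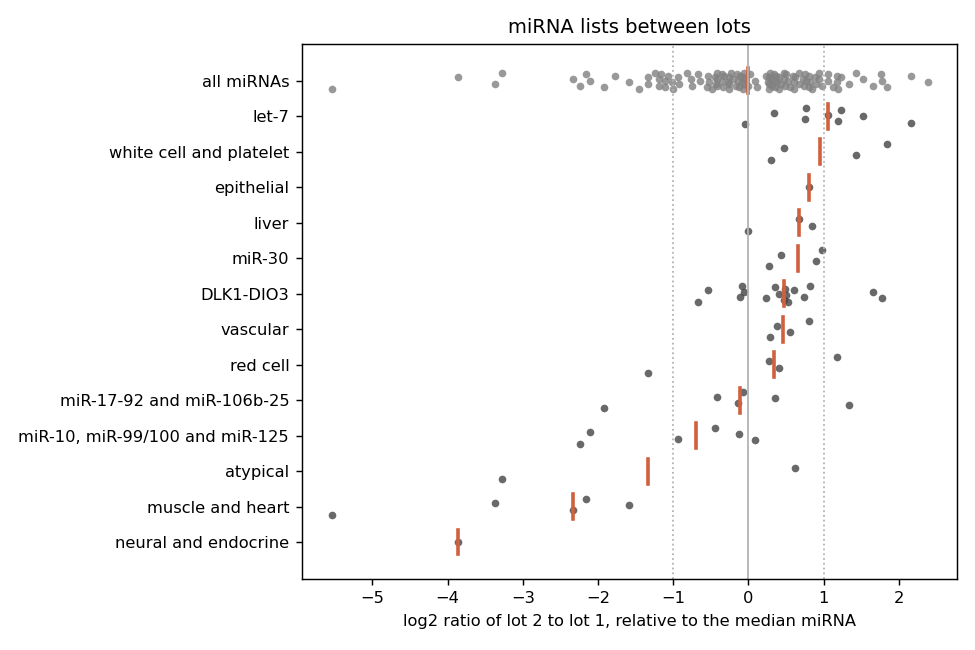
Centred log2 ratio of lot 2 to lot 1 for the 121 miRNAs with at least 20 counts over both lots (top row) and for the members of each list among them, each point 1 miRNA without replicates. The short coloured bars are medians, 0 is the median miRNA and dotted lines mark 2-fold: the 5 muscle and heart miRNAs, which passed the filter through lot 1, lie below the lower line, and 5 of 9 let-7 miRNAs above the upper line. Of these let-7 miRNAs, miR-98-5p passed the filter through lot 2.

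The miRNAs of the imprinted DLK1-DIO3 region, many of which are abundant in fetal tissue, were mostly within 2-fold, as were most miRNAs. Of 17 tested, 15 were within 2-fold and 2 were at least 2-fold above the median miRNA, a share close to the 13.2% of all miRNAs. None was at least 2-fold below it, beside 18.2% of all miRNAs. miR-369-3p was one of these, with 105 counts in lot 1 and 159 in lot 2, 3.63-fold higher in spike-in units (2.82 to 4.69). The miR-17-92 and related clusters, known for driving cell division, had 1 member at least 2-fold above, 1 at least 2-fold below and 4 within 2-fold, shares close to the 13.2% and 18.2% of all miRNAs. The member 2-fold below was miR-92a-3p, with 331 and 42 counts, 3.29-fold lower (2.38 to 4.65). Among miR-10, miR-99/100 and miR-125, 2 of 6 were at least 2-fold below the median miRNA, beside 18.2% of all miRNAs. None was at least 2-fold above it, beside 13.2% of all miRNAs. Those below were miR-100-5p, with 79 and 8 counts, and miR-125b-5p, with 36 and 4. Both passed the filter through lot 1, where they were high, so that the count adds nothing to these values. The neural list rested on miR-128-3p alone, with 121 and 4 counts, 12.6-fold lower (4.81 to 47.1).

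The annotations miR-1246 and miR-4532 have been proposed to be fragments of other RNAs, and they differed from each other here. miR-4532 had 81 counts in lot 1 and 4 in lot 2, 8.46-fold lower (3.18 to 31.8), whereas miR-1246 had 106 and 78 counts and was within 2-fold of the median miRNA. Of the 10 most abundant miRNAs of lot 1, the furthest below the median was miR-423-5p, with 1440 and 252 counts, 2.39-fold lower in spike-in units (2.09 to 2.74). Its other arm, miR-423-3p, had 321 and 71 counts, 1.89-fold lower (1.46 to 2.48). Also below were miR-23b-3p (157 and 22 counts), miR-23a-3p (233 and 50), miR-378a-3p (143 and 29) and miR-361-5p (84 and 16). Of the abundant miRNAs outside the lists, miR-21-5p was above the median, with 842 and 879 counts, 2.50-fold higher in spike-in units (2.27 to 2.75).

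Both arms of a hairpin come from one precursor, and they were compared where each arm passed the filter. Of 9 such hairpins, the arms of 7 lay on the same side of the median miRNA, and the median difference between arms was 0.41 on the log2 scale. miR-142 was high and miR-423 low with both arms. The arms of miR-30e and miR-425 lay on opposite sides, in miR-30e with 130 and 75 counts for the 5p arm and 19 and 4 for the 3p arm.

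To set the size of the lot differences, the same measure was taken between the sera of both suppliers. Of the miRNAs tested in each pair, 31.4% were 2-fold apart between the lots, 22.2% (36 of 162) between FBS-1 and FBS-2, and 15.6% (15 of 96) between UC-dFBS-1 and UC-dFBS-2. At 4-fold the shares were 8.26%, 0.617% and 0%. Of the 93 miRNAs tested in all 3 pairs, 27 were 2-fold apart between the lots, 21 between FBS-1 and FBS-2 and 14 between UC-dFBS-1 and UC-dFBS-2. The lot difference was larger than both serum differences for 40 of these 93 (43%). For the other small RNA loci the share was lowest between the lots, with 52.1% of loci 2-fold apart between the lots, 68.4% between FBS-1 and FBS-2 and 60.7% between UC-dFBS-1 and UC-dFBS-2. Of the 239 loci tested in all 3 pairs, 107 were 2-fold apart between the lots, 159 between FBS-1 and FBS-2 and 145 between UC-dFBS-1 and UC-dFBS-2. The lot difference was the largest for 60 of these 239 (25.1%). For every RNA 1 of the 3 pairs is the largest, so that such a share arises also where the pairs are alike. These shares are a description of 3 pairs of single libraries that differ in depth, and whether the pairs differ was not tested.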

How the data were processed

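Small ncRNA of 9 media libraries had been sequenced by the authors with unique molecular indices (UMIs), and both SBI-dFBS libraries were compared here. The authors trimmed reads with cutadapt 1.11, collapsed them by UMI and mapped them with Bowtie2 2.2.2 to human miRBase miRNAs and to GRCh37. The deposited counts are the resulting reads per miRNA (425) and per locus (1361), not normalized. The authors also deposited a spike-in normalized signal, in which counts were scaled by a line fitted through 0 to the spike-in reads of the library, and the ratio of count to value was constant within each library. The spike-in reads were not analysed here, so that the error of the factor is unknown.

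Totals, shares and ratios were computed in python 3.11.15 with pandas 2.3.3 and scipy 1.17.1. A ratio of lots has an exact conditional binomial (Clopper-Pearson) 95% interval. One count was 0.111 spike-in units in lot 1 and 0.265 in lot 2, and the floor of 3 counts was 0.332 and 0.794. Centred log2 ratios subtract the median over RNAs of the same table with at least 20 counts over both lots, counts under the floor were set to it, and 2-fold from the median was taken as apart. snRNA families, tRNA isotypes and anticodons were summed by locus name. The procedure was tested on simulated data.

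RNAs were named by rule. For miRNAs these were the 10 most abundant of either lot, the 10 highest and 10 lowest centred ratios with at least 100 counts over both lots, and up to 4 members per list of 13 lists. For the others these were all isotypes and snRNA families, the 5 highest and 5 lowest anticodons, and the 3 highest, 3 lowest and 3 most abundant loci per class. Further list members, anticodons that complete an amino acid, miR-208b-3p, miR-30e-3p, and U1 loci absent from lot 2 fall outside these rules and were chosen after seeing their values. The comparison, its members and the lists were chosen with earlier results of these data known. Alternatives were other scales, filters, thresholds and counting loci with identical counts once (523 loci).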

Additional observations from a re-analysis of the deposited data

How the results depend on the processing

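With raw counts in place of spike-in normalized values, the ratio of lot 2 to lot 1 was 0.707 for miRNA, 1.37 for tRNA, 0.897 for snRNA, 0.177 for Y RNA, 0.476 for snoRNA and 1.36 for all RNA, and with shares of all counts it was 0.522, 1.01, 0.661, 0.130 and 0.351 for the same 5 classes. The direction thus turned for miRNA, snRNA and snoRNA and held for tRNA and Y RNA. The spike-in factors by their construction make up the 2.39-fold step between the scales. The counts of miRNAs 2-fold higher and lower (16 and 22) were 2 and 62 with raw counts, 6 and 35 with shares of all counts, 7 and 13 with at least 100 counts, 5 and 89 with at least 1 count, 2 and 8 at 4-fold, and 6 and 10 where the whole counting interval had to pass 2-fold. With at least 50 counts, 10 miRNAs were higher. The counts of loci (95 and 81) were 221 and 34 in spike-in units without centring and 19 and 52 at 4-fold. The higher loci numbered 50 with at least 100 counts and 56 by the counting interval, and the lower loci 128 with at least 1 count. A further pair of alternatives was chosen after seeing the data. Centred on tRNA loci alone, 63 tRNA loci were higher and 64 lower (85 and 33 when centred on all loci), and centred on the other loci alone, 18 were higher and 21 lower. In spike-in sums, 15 isotypes were 2-fold higher and 3 lower (4 and 5 by share), and 2 snRNA families higher and 2 lower (1 and 5 by share). U6 (1.02) and U2 (1.05) turned direction in spike-in sums. Why the counts moved with the filters and thresholds was not tested, apart from the different numbers of RNAs they admit. No replicate could be left out, because each lot was 1 library. No paired analysis was possible because the numbers 1 and 2 are the lots themselves, each with 1 library, and the comparison between them comes from no test. Low counts limit the miRNAs at 1 to 4 counts in lot 2, the rare tRNA isotypes and the snoRNAs.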
